A study of Mus musculus with 10 samples.

Results

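The comparison described here sets intermediate lobes (ILs) of the mouse pituitary that lacked p27 against wild-type (WT) ILs at 2 mo of age. Its members are 5 of the 10 RNA-seq libraries of the series, chosen by the genotype and age in their labels, 2 from p27-/- and 3 from WT animals. The remaining 5 libraries came from 7-mo-old animals, and they entered the filter on low values and the statistical model together with those of 2 mo. Per the methods of the study, the p27-/- mice carried the Cdkn1b tm1Mf null allele on a mixed background and were compared with littermates or animals of comparable background. Each library was a biological replicate made from RNA of dissected ILs of males or females, copied into cDNA and amplified before library construction. The study's animal record lists males for the 3 WT samples and 1 male and 1 female for the p27-/- samples of 2 mo.

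P27, the product of Cdkn1b, binds cyclin-dependent kinases (CDKs) together with their cyclins and holds cells out of the division cycle. Cyclin D paired with CDK4 or CDK6 phosphorylates RB, which releases E2F factors that switch on genes of DNA replication, and genes of mitosis follow later in the cycle. The IL is made mostly of melanotrophs, endocrine cells that cut the precursor POMC into alpha-MSH, and mice without p27 are known to develop tumors in this lobe as they age.

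Values are on the log2 scale of the normalised expression that the study deposited, so a difference of 1 is a doubling. A level compares libraries for the same gene and does not rank genes, because it is not per length. A gene was called when its adjusted p in limma was under 0.05 among the 16556 genes tested, and "rose" or "fell" is kept for called genes. All differences are p27-/- minus WT, with the standard error (SE) from the model.

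The tissue carried the markers of its label. Pomc lay between 15.89 and 17.09 in the 5 libraries, the convertase gene Pcsk2 between 13.53 and 13.82, and Pax7 and Tbx19, the factors that specify melanotrophs, between 11.23 and 11.45 and between 9.71 and 9.89. Transcripts of neighboring lobes were present too, among them the growth hormone gene Gh at 11.09 to 13.88. Read depth per library is unknown, because the normalised log2 values do not keep it. The libraries were not uniform: the root mean square log2 difference between 2 WT libraries was 0.352 to 0.431, that between the p27-/- libraries was 0.283, and that between genotypes was 0.356 to 0.454. Mitochondrially encoded transcripts held 24.2% to 41.1% of the back-transformed total in WT and 28.1% and 31.5% in p27-/-. Xist, the RNA that coats the inactive X of females, was at 7.32 to 7.70 in WT, 9.08 in p27-/- replicate 1 and 14.75 in p27-/- replicate 2, the library in which Y-linked genes were low. The rank correlation of a library's deviation from the mean with the GC content of genes was 0.0589 to 0.389 in WT and -0.225 and -0.128 in p27-/-, so GC content moved with genotype.

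The disrupted gene was lower in both p27-/- libraries but not absent. Cdkn1b (chr6:134920401-134925525 in GRCm38.p6) was at 9.33, 9.08 and 8.96 in the WT libraries and at 7.91 and 8.06 in those from p27-/- ILs. There was no overlap, and Cdkn1b fell by 1.13 on the log2 scale (SE 0.16, adjusted p = 0.0155), a 2.19-fold decrease. The call was lost when a p27-/- library was left out, with an adjusted p of 0.301 without replicate 1 and 0.161 without replicate 2, while the difference stayed between -1.03 and -1.21 whichever library was left out. At 7 mo the same difference was -0.33 (adjusted p = 0.156). The files give 1 value per gene, so which exons the remaining reads covered is not shown.

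At 2 mo, ILs without p27 held 8.31-fold less transcript of cyclin D2 and 5.53-fold less of cyclin D1. Most mitosis genes, 22 of 28, were at higher levels in both p27-/- libraries than in any WT library, but none of them passed the test. Matrix, blood vessel, stem cell and IGF genes had negative median differences, with few of their members called. Of the 16556 genes, 38 were called (0.230%), 10 of them higher (0.0604%) and 28 lower (0.169%) in p27-/-. At an unadjusted p under 0.05, 786 genes were higher (4.75%) and 1079 lower (6.52%). Of the 38 called genes, 31 had a symbol, 4 of the rises and 27 of the falls. In all 38 the genotypes did not overlap, and over all genes tested 15.6% lay wholly higher and 16.5% wholly lower in p27-/-.

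The number of calls depended on the fit. With a correction for GC content 13 genes were called, 2 of them higher and 11 lower. These were Ccnd2, Ccnd1, Cdkn1b, Prelp, Dkk3, Gh, Hist1h2bc, Grem1, Mmp15, Timp3, A430107O13Rik, Mybpc1 and Gm15941, and for the other called genes named here that had a GC content the adjusted p was 0.0576 to 0.0884. Quantile normalisation left 8 calls, and with the log2 Xist level as a covariate 6 were called. Leaving out WT replicate 1, 2 or 3 gave 12, 10 or 6 calls, of which 10, 8 and 6 were among the 38. Fewer still were called when either p27-/- library was left out, which leaves a single library in that group. Ccnd2 was called in 17 of 17 alternative fits and in all 5 fits that left out a library, and ENSMUSG00000107379 in 13 of the 13 fits it could enter and in all 5. Ccnd1 was called in 17 of 17 and in 4 of 5, and no other gene named here was called in more than 3 of the 5.

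**Figure D1:**
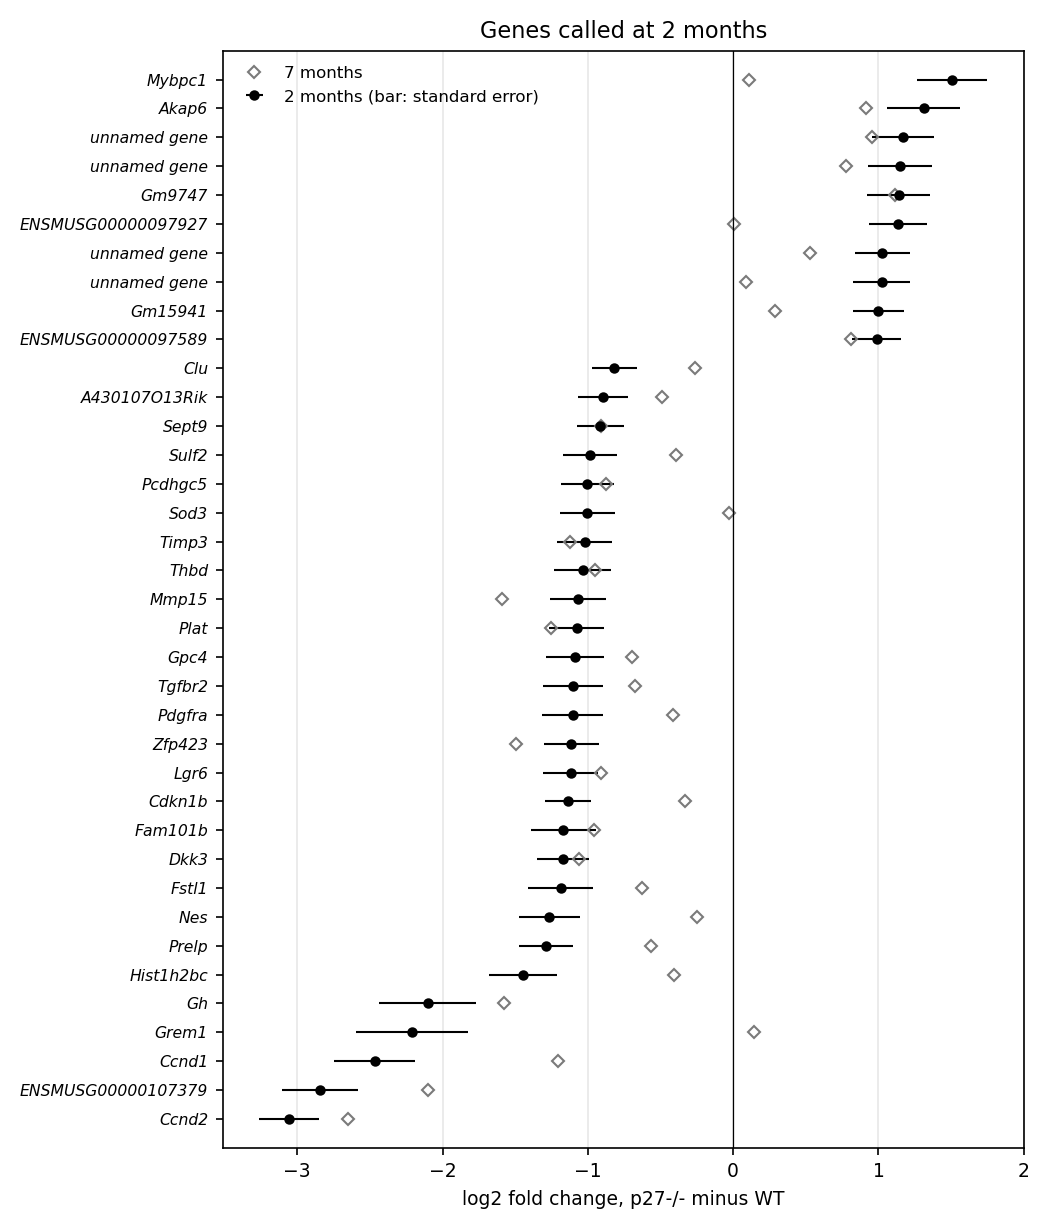
Log2 fold change, p27-/- minus WT, of genes called at 2 mo, with 1 of the 38 left out (black points, bars are the SE of the model), with the difference of the same gene at 7 mo as open diamonds. Ccnd2 at -3.06 lies lowest and Mybpc1 at 1.51 highest, and Grem1 is the 1 gene whose sign differs between the ages.

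Ccnd2 and Ccnd1 were 2 of the 3 largest called falls on the log2 scale. Ccnd2 encodes cyclin D2 and lies on the same chromosome as Cdkn1b (chr6:127125162-127152188). Any part of sequence linked to the null allele was not tested. Ccnd2 was at 12.26, 11.93 and 11.71 in WT and at 8.91 in both p27-/- libraries. Both lay far below the lowest WT library, and Ccnd2 fell by 3.06 (SE 0.21, adjusted p = 5.36e-06), an 8.31-fold decrease. Ccnd1, which encodes cyclin D1 (chr7:144929931-144939831), was at 9.71, 9.62 and 9.13 in WT and at 6.74 and 7.30 in p27-/-. Ccnd1 fell by 2.47 (SE 0.28, adjusted p = 0.00148), a 5.53-fold decrease, and its adjusted p was 0.0708 without p27-/- replicate 1. The third D cyclin, Ccnd3, was at 7.33, 6.88 and 6.88 in WT and 6.38 and 6.84 in p27-/-, a difference of -0.42 (SE 0.22, adjusted p = 0.501). The kinases that D cyclins activate overlapped between genotypes, with a difference of 0.10 for Cdk4 (adjusted p = 0.872) and -0.01 for Cdk6 (adjusted p = 0.998).

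ENSMUSG00000107379, a gene without a symbol in the tables used, stood between Ccnd2 and Ccnd1 in the size of its fall. It was at 7.71, 7.31 and 7.59 in WT and at 5.02 and 4.37 in p27-/-, and fell by 2.84 (SE 0.26, adjusted p = 0.000178).

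Of 7 CDK inhibitor genes listed 4 were tested, and Cdkn1b was the 1 called. Cdkn1c, which encodes P57, was at 5.51, 6.55 and 5.63 in WT and 5.25 and 5.41 in p27-/- (difference -0.57, adjusted p = 0.511). Cdkn2c, which encodes P18, was at 4.72 to 5.11 in WT and 5.24 and 5.43 in p27-/- (difference 0.41, adjusted p = 0.545). Cdkn1a, the p53-responsive inhibitor gene, overlapped between genotypes (difference 0.12, adjusted p = 0.920).

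**Figure D2:**
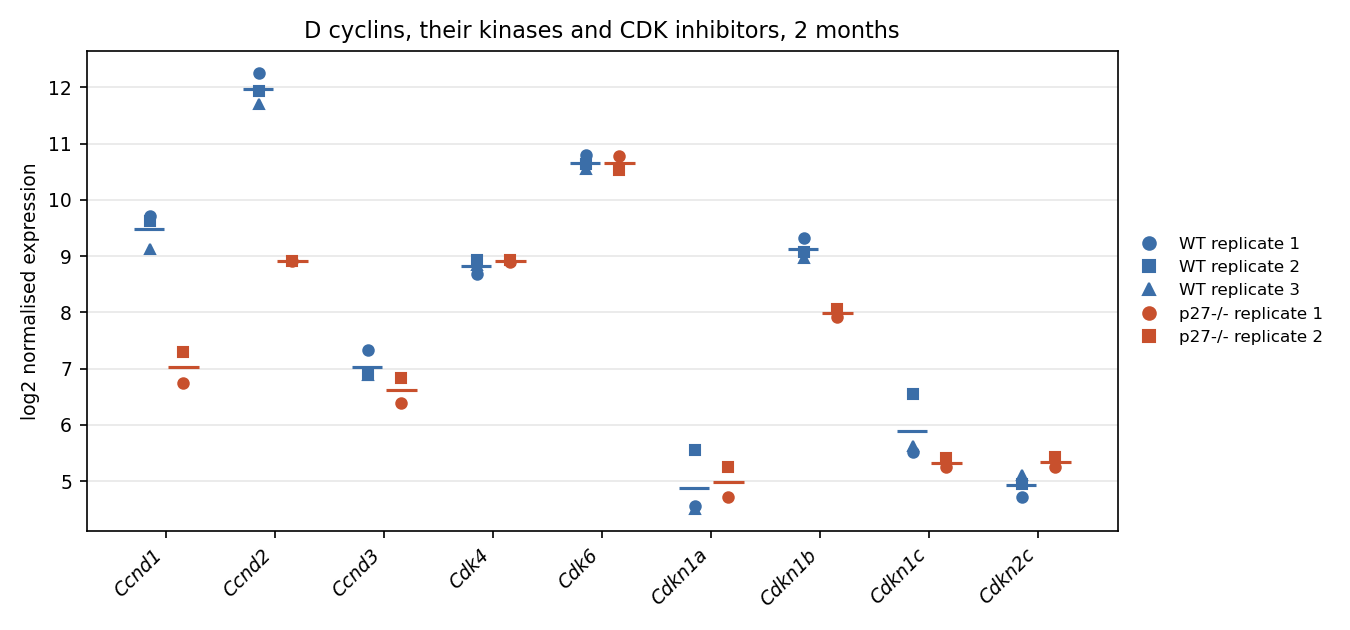
Log2 normalised expression of the D cyclins, their kinases and the CDK inhibitors that were tested, with 1 point per library and short lines at group means (3 WT, 2 p27-/-). Ccnd1, Ccnd2 and Cdkn1b separate widely by genotype, whereas Cdk4, Cdk6 and Cdkn1a overlap.

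Genes of the later cell cycle leaned toward higher levels. Of 28 mitosis genes tested, 27 had a positive difference, 22 lay wholly above WT in both p27-/- libraries and 20 had an unadjusted p under 0.05 in the higher direction, with 0 called in limma. Their median difference was 0.60, and that over all genes tested was -0.01. The 1 gene with a negative difference, Racgap1 at -0.26, lay wholly below WT. A further 11 listed mitosis genes were too low to be tested. Among 31 DNA replication genes, 25 differences were positive, 13 genes lay wholly above WT and 1 wholly below. Of the 31, 7 had an unadjusted p under 0.05, all higher, with a median of 0.23 and 0 called. The 15 genes of RB, E2F and their partners had a median of 0.14, 2 of them at an unadjusted p under 0.05, and the 11 genes of E and A cyclins, CDK2 and p27 turnover a median of 0.05, with 0 at that level.

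Mki67, which encodes the proliferation antigen Ki-67, was at 6.99, 7.03 and 7.08 in WT and 7.88 and 8.53 in p27-/-. WT libraries were close to each other and both p27-/- libraries were above them, a difference of 1.17 (SE 0.26, adjusted p = 0.0852). Top2a, which encodes the topoisomerase that untangles replicated DNA, was at 6.33, 5.84 and 5.90 in WT and 6.95 and 7.61 in p27-/-, a difference of 1.25 (SE 0.32, adjusted p = 0.127). Cenpf, a kinetochore gene, was at 6.05, 6.08 and 5.87 in WT and 6.86 and 7.36 in p27-/- (difference 1.11, SE 0.26, adjusted p = 0.0976). In these 3 genes p27-/- replicate 2, the library high in Xist, was the higher of the pair. Smc2, a condensin subunit gene, was even within each genotype, at 7.34, 7.18 and 7.34 in WT and 8.08 and 8.11 in p27-/- (difference 0.81, SE 0.18, adjusted p = 0.0838), and its partner Smc4 differed by 0.82 (adjusted p = 0.121).

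Of the replication genes, Clspn, whose product signals stalled forks, was at 3.80 to 4.14 in WT and 4.70 and 4.92 in p27-/- (difference 0.89, adjusted p = 0.103), and Pole, the leading-strand polymerase gene, differed by 0.72 (adjusted p = 0.178). E2f7, a repressor of the E2F family, differed by 0.68 (adjusted p = 0.201). The median of the mitosis list was 0.62 with the GC correction, 0.58 with Xist as a covariate and 0.44 to 0.73 when a library was left out, and the list's median GC content was 43.4% beside 49.2% over all genes tested.

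The same genes can be set beside the 7-mo comparison, which used other animals and in which GC content also moved with genotype. Xist was unbalanced there in the other direction, at 14.21 and 14.51 in WT and 8.07, 7.70 and 15.02 in p27-/-. Mitochondrially encoded transcripts held 19.27% and 27.98% in WT and 38.73%, 48.04% and 45.24% in p27-/- at 7 mo. Neither imbalance was modeled in the fit that gave the values below, and its part in them was not tested. At 7 mo Mki67 differed by 3.52, Cenpf by 2.84 and Top2a by 2.59, and the mitosis list had a median of 1.07. The genotype by age interaction, which tests the difference between the ages itself, called 0 genes in limma, with 2675 at an unadjusted p under 0.05. The smallest adjusted p of that test was 0.0658, shared by Mki67 and other genes, among them Rgs5 and mt-Co2. Among the 38 genes called at 2 mo the smallest was 0.112, so a different response at the 2 ages was not shown for any of them.

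**Figure D3:**
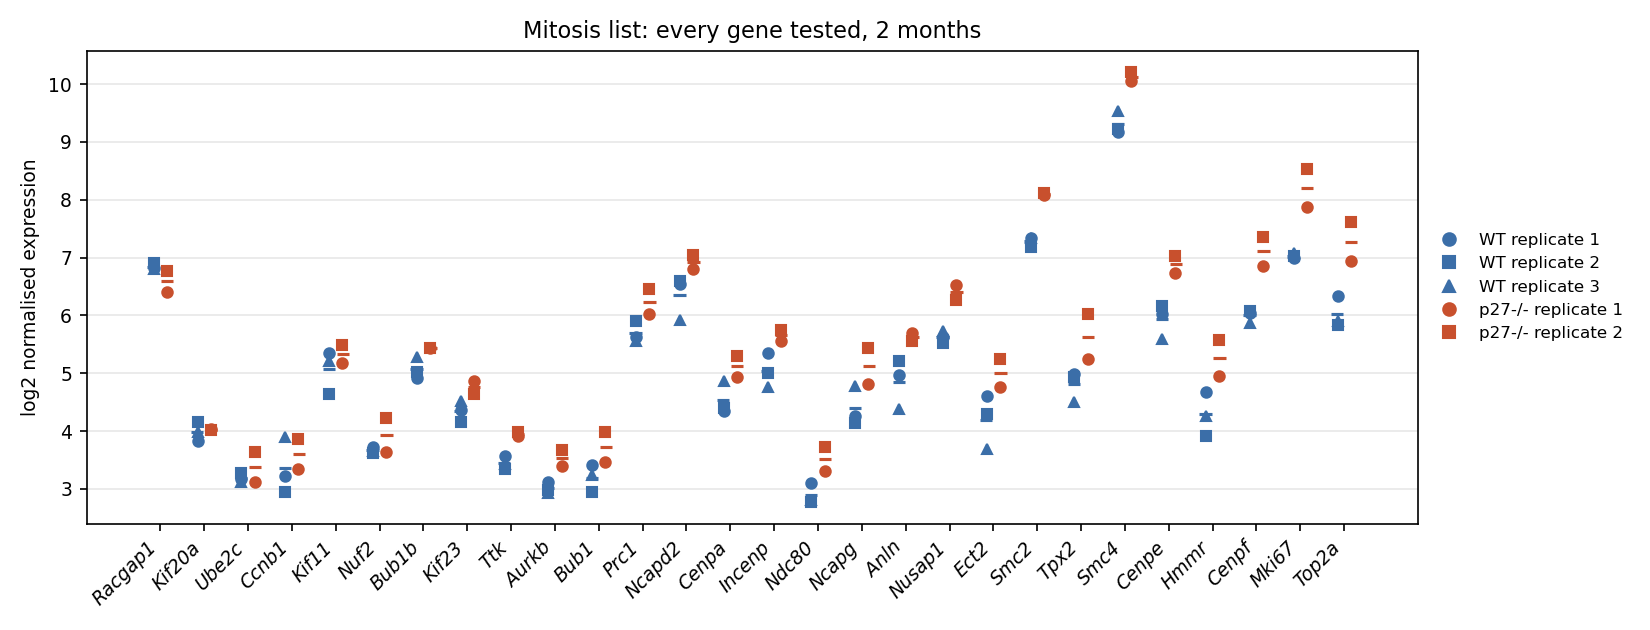
Log2 normalised expression of all 28 mitosis genes tested, 1 point per library with short lines at group means, ordered by the genotype difference. Both p27-/- libraries lie above all WT libraries in 22 genes, and Racgap1, the 1 gene with a negative difference, lies wholly below WT.

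Promoters of the mitosis list are printed to show a sequence feature of its members. The counts follow from which genes were listed and say nothing about the genotype difference. Promoters of genes periodic in mitosis are known to carry a CHR element near CCAAT boxes, whereas replication genes carry E2F sites. RefSeq promoter sequences of GRCm38.p6, 250 bases before to 50 after each gene start, were matched by symbol for 23 of the 28 mitosis genes (25 promoters) and 25 of the 31 replication genes (32 promoters). The CHR letters TTTGAA stood on either strand in 20 of the 25 mitosis promoters, in 5 of the 32 replication promoters (15.6%) and in 17.9% of all 32851 promoters of the table. An E2F site, taken as TTTGGCGC, TTTCCCGC, TTTGCCGC or TTTCGCGC on either strand, stood in 2 of 25, 13 of 32 (40.6%) and 2.26% of them. CCAAT on either strand stood in 21 of 25, 21 of 32 (65.6%) and 37.4%. Among the 13829 promoters matched to all genes tested, the shares were 12.3% for CHR, 3.64% for E2F and 37.4% for CCAAT. Promoters were matched for only 16 of the 28 genes called lower. Of those 21 promoters 2 held the CHR letters, 6 CCAAT and 0 an E2F site, and the unmatched genes are not covered. A match describes the letters in the window and does not show a bound factor. The promoters of 4 genes described above follow, 5′ to 3′ on the strand of the gene, with capitals on every CHR and CCAAT match of either strand:
Mki67, chr7:135716330-135716629, minus strand: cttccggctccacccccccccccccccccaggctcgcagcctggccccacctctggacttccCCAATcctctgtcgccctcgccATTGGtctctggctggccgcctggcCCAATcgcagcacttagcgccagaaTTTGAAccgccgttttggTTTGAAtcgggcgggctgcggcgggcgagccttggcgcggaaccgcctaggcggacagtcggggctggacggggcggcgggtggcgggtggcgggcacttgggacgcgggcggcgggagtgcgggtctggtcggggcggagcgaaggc
Top2a, chr11:99024140-99024439, minus strand: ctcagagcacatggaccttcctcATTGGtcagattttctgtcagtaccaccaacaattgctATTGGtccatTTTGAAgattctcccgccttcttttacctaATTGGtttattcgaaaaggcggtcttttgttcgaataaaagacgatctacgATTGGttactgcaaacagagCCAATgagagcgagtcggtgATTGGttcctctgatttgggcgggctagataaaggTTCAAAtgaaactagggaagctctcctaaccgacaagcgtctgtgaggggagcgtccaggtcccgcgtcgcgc
Cenpf, chr1:189688037-189688336, minus strand: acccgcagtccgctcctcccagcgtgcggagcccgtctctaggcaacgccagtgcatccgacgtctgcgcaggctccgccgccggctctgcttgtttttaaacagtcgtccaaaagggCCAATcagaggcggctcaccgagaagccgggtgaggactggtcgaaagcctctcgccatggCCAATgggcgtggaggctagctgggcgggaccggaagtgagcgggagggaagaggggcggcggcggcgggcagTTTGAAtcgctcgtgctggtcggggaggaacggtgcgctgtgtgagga
Smc2, chr4:52438971-52439270, plus strand: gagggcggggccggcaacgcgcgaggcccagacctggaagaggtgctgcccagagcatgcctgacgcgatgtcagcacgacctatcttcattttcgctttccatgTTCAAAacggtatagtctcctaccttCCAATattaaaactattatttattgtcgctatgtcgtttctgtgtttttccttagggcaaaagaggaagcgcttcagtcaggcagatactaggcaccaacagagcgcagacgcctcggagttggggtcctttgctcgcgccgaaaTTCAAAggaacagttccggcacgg

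The Mki67 promoter held 2 CHR matches, at -116 and -98 from the gene start, and 3 CCAAT matches between -188 and -141. The Top2a promoter held 2 CHR and 6 CCAAT matches, that of Cenpf 1 CHR match just past the start and 2 CCAAT matches, and that of Smc2 2 CHR and 1 CCAAT match. No match overlapped another, and none of the 4 promoters held an E2F match as spelled here.

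Genes called higher were few and did not belong to the cell cycle lists. Akap6 encodes an anchoring protein that holds protein kinase A and phosphodiesterases together. It was at 7.70, 7.67 and 7.87 in WT and 9.15 and 8.97 in p27-/-, and rose by 1.31 (SE 0.25, adjusted p = 0.0492), a 2.48-fold increase. The call was not kept in any of the 5 fits that left out a library (adjusted p 0.0971 to 0.580), with the GC correction (adjusted p = 0.0576) or after quantile normalisation (adjusted p = 0.0771), and it was kept with Xist as a covariate (adjusted p = 0.0145). Mybpc1, a gene of a myosin-binding protein best known from slow muscle, was at 4.71, 4.66 and 4.21 in WT and 6.28 and 5.78 in p27-/- and rose by 1.51 (SE 0.24, adjusted p = 0.0336), a call kept in none of the 5 fits without a library. The call for Mybpc1 was also lost with Xist as a covariate (adjusted p = 0.189). The other symbols, Gm9747 and Gm15941, rose by 1.14 and 1.00 from levels of 2.87 to 3.39 and 2.88 to 3.09 in WT, and the unnamed ENSMUSG00000097927 and ENSMUSG00000097589 by 1.13 and 0.99.

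Further genes were wholly higher in p27-/- without a call. Arpp21, a cAMP-regulated phosphoprotein gene, was at 7.87, 8.27 and 7.87 in WT and 9.27 and 9.28 in p27-/- (difference 1.28, SE 0.25, adjusted p = 0.0545). Klk1, a kallikrein gene, was at 6.12 to 6.35 in WT and 7.28 and 7.35 in p27-/- (difference 1.11, adjusted p = 0.0816), and the mucin gene Muc6 differed by 1.12 (adjusted p = 0.103). Calb1, which encodes the calcium buffer calbindin, differed by 0.91 (adjusted p = 0.214). Pmaip1, the p53-responsive gene of the pro-apoptotic protein NOXA, was at 3.78 to 4.23 in WT and 5.53 and 5.14 in p27-/- (difference 1.37, SE 0.40, adjusted p = 0.182), while the 14 p53 target genes tested had a median of -0.03. Apart from Akap6, 0 of the 24 cAMP signalling genes were called, and among them Akap5 differed by 0.83 (adjusted p = 0.165) and Pde4b by -0.59 (adjusted p = 0.118).

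The identity factors Tbx19 and Pax7 overlapped between genotypes, whereas Pomc and some genes of its processing were at lower levels without a call. Pomc was at 16.53, 17.09 and 16.78 in WT and 15.89 and 16.17 in p27-/-, wholly lower with a difference of -0.77 (SE 0.31, adjusted p = 0.361). Tbx19 and Pax7 differed by 0.02 and 0.11 (adjusted p = 0.989 and 0.836), and Pcsk2 by 0.08 (adjusted p = 0.920). The convertase gene Pcsk1 overlapped between genotypes (difference -0.36, adjusted p = 0.586). Of the 17 genes of melanotroph identity and POMC processing 0 were called, 5 had an unadjusted p under 0.05, all lower, and the median was -0.28. Those 5 were Pomc, the glucocorticoid receptor gene Nr3c1 at -0.62 (adjusted p = 0.162), the convertase inhibitor gene Pcsk1n at -0.61 (adjusted p = 0.339), Insm1 at -0.53 (adjusted p = 0.374) and Pam, whose product amidates peptide hormones, at -0.41 (adjusted p = 0.335). Of these, Insm1 overlapped between genotypes. The 30 granule and exocytosis genes had a median of -0.03, with Scg2, a granin gene, at -0.57 (adjusted p = 0.260), and the 25 calcium and potassium channel genes had a median of 0.10, with 0 called in either list. The median of the melanotroph list was -0.11 with GC and Xist together.

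Markers of the SOX2-expressing stem cells that line the cleft of the IL were lower in part. Of 20 genes tested, 13 lay wholly below WT and 9 had an unadjusted p under 0.05, all lower, with a median of -0.45. Another 4 had a positive difference, 2 of them wholly above WT. Over all genes tested 16.5% lay wholly below WT and 15.6% wholly above. Nes, which encodes the intermediate filament nestin, was the member called, at 7.55, 7.77 and 7.61 in WT and 6.40 and 6.37 in p27-/-, and fell by 1.26 (SE 0.21, adjusted p = 0.0398). The call for Nes was lost with the GC correction (adjusted p = 0.0576), with Xist as a covariate (adjusted p = 0.204) and whichever library was left out (adjusted p 0.0669 to 0.580). Sox9 was at 8.33, 8.35 and 8.05 in WT and 7.34 and 7.35 in p27-/- (difference -0.90, SE 0.21, adjusted p = 0.103), and Aldh1a1, of retinoic acid synthesis, differed by -0.88 (adjusted p = 0.0707). Sox2 was at 7.75, 7.41 and 7.26 in WT and at 7.11 in both p27-/- libraries (difference -0.36, SE 0.20, adjusted p = 0.556). For Sox2 the gap between genotypes was narrower than the spread among the WT libraries. In bulk tissue, fewer cells of a type and less RNA per cell cannot be told apart, here, for the genes above and in the lists that follow.

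Among WNT and TGF-beta genes 3 were called, and all 3 fell. Dkk3, a secreted protein of the Dickkopf family, was at 8.87, 8.95 and 9.41 in WT and 7.83 and 7.97 in p27-/- and fell by 1.17 (SE 0.18, adjusted p = 0.0301). Lgr6, an R-spondin receptor that enhances WNT signalling, was at 7.21, 7.12 and 7.14 in WT and 6.13 and 5.94 in p27-/- and fell by 1.12 (SE 0.19, adjusted p = 0.0398). These were the 2 of 25 WNT genes called, 11 had an unadjusted p under 0.05, all lower, and the median was -0.42. The call for Lgr6 was lost with the GC correction (adjusted p = 0.0576), with Xist as a covariate (adjusted p = 0.196) and whichever library was left out (adjusted p 0.0696 to 0.580). That for Dkk3 was lost with Xist as a covariate (adjusted p = 0.109) and without WT replicate 3 or either p27-/- library (adjusted p 0.0642 to 0.333). The WNT median was -0.145 with GC and Xist together. Ctnnb1, which encodes beta-catenin, differed by -0.46 (adjusted p = 0.249), and Axin2, a common target of the pathway, by -0.01 (adjusted p = 0.994).

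Tgfbr2, the type II receptor for TGF-beta, was at 7.67, 7.65 and 7.79 in WT and 6.59 and 6.61 in p27-/- and fell by 1.10 (SE 0.21, adjusted p = 0.0492). The call for Tgfbr2 was lost with the GC correction (adjusted p = 0.0576), with Xist as a covariate (adjusted p = 0.267) and whichever library was left out (adjusted p 0.0988 to 0.580). Of 21 TGF-beta and BMP genes 8 had an unadjusted p under 0.05, all lower, with a median of -0.29 that was -0.12 with GC and Xist together, and the ligand gene Tgfb2 differed by -0.81 (adjusted p = 0.115). Outside the list, the BMP antagonist gene Grem1 was at 6.77, 5.05 and 5.30 in WT and 3.37 and 3.62 in p27-/- and fell by 2.21 (SE 0.38, adjusted p = 0.0464). WT replicate 1 stood well above the other WT libraries for Grem1, and without it the difference was -1.68 (adjusted p = 0.0250). The call was lost without WT replicate 3 or either p27-/- library (adjusted p 0.0696 to 0.508). With Xist as a covariate (adjusted p = 0.141) and after quantile normalisation (adjusted p = 0.0749) the call for Grem1 was lost too. Grem1 was not called at 7 mo (difference 0.14, adjusted p = 0.823), with an adjusted p of 0.112 for the interaction.

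All 12 genes of the IGF axis had a negative difference, 6 of them at an unadjusted p under 0.05, with a median of -0.56 (-0.33 with GC and Xist together) and 0 called. Igfbp5, which encodes an IGF-binding protein, was at 12.47, 12.90 and 11.69 in WT and 11.18 and 10.98 in p27-/- (difference -1.28, adjusted p = 0.130), and Igfbp4, highest at 7.73 in WT replicate 2, differed by -1.20 (adjusted p = 0.178). Of 24 Notch genes 8 were lower at that level with a median of -0.19, led by the receptor genes Notch1 at -0.95 (adjusted p = 0.0852) and Notch2 at -0.68 (adjusted p = 0.0951). The Notch median was -0.10 with the GC correction and -0.01 with GC and Xist together.

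Extracellular matrix genes had negative median differences in each of 3 families. Prelp, a small leucine-rich proteoglycan that anchors basement membranes, was at 10.09, 10.54 and 10.30 in WT and 8.93 and 9.11 in p27-/- and fell by 1.29 (SE 0.19, adjusted p = 0.0171). Timp3, a matrix-bound inhibitor of metalloproteinases, was at 11.45, 11.66 and 11.01 in WT and at 10.35 in both p27-/- libraries and fell by 1.02 (SE 0.19, adjusted p = 0.0492). Of 8 small leucine-rich proteoglycan genes Prelp was the 1 called, 4 had an unadjusted p under 0.05, all lower, and the median was -0.62 (-0.39 without WT replicate 3). Among 18 collagen genes 16 were negative and 11 had an unadjusted p under 0.05, with a median of -0.62 and 0 called. Col4a2 and Col18a1, collagens of basement membranes, differed by -1.16 and -0.95 (adjusted p = 0.0597 and 0.0884). Of 36 other matrix genes 1 was called and 15 had an unadjusted p under 0.05, all lower, with a median of -0.44, and Hspg2, which encodes perlecan, differed by -1.06 (adjusted p = 0.0545) and Lamb2, a laminin chain gene, by -1.09 (adjusted p = 0.0554). Leaving out a library gave an adjusted p of 0.0177 to 0.301 for Prelp, called only without WT replicate 1, and of 0.0254 to 0.580 for Timp3, called only without WT replicate 3. With Xist as a covariate Prelp and Timp3 were not called (adjusted p = 0.109 and 0.237). With GC and Xist together the medians were -0.49 for collagens and -0.22 for the other matrix genes.

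Other called falls had various roles. Fstl1 (-1.19) and Clu (-0.82) encode secreted proteins, Gpc4 (-1.09) a glypican, Sulf2 (-0.98) an enzyme that edits heparan sulfate, Mmp15 (-1.07) a membrane metalloproteinase, Plat (-1.08) tissue plasminogen activator and Thbd (-1.04) thrombomodulin. Sept9 (-0.92) encodes a septin, Zfp423 (-1.11) a zinc finger factor and Fam101b (-1.17) a regulator of actin filaments. Pdgfra, a receptor gene of fibroblast-like cells, was at 6.24, 6.73 and 6.50 in WT and 5.49 and 5.28 in p27-/- and fell by 1.11 (SE 0.21, adjusted p = 0.0492). Sod3, an extracellular superoxide dismutase gene, fell 2.01-fold, and Pcdhgc5, a protocadherin gene, fell from between 8.78 and 9.18 in WT to 7.94 and 8.04 in p27-/-. The adjusted p of these genes lay between 0.0464 and 0.0492, and with the GC correction Mmp15 alone of them was called. None of them was called with Xist as a covariate (adjusted p 0.0518 to 0.264) or after quantile normalisation (adjusted p 0.0771 to 0.0865). When a WT library was left out, only Fstl1 (without WT replicate 1) and Zfp423 (without WT replicate 3) of them were called. A430107O13Rik fell by 0.90 (adjusted p = 0.0492).

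**Figure D4:**
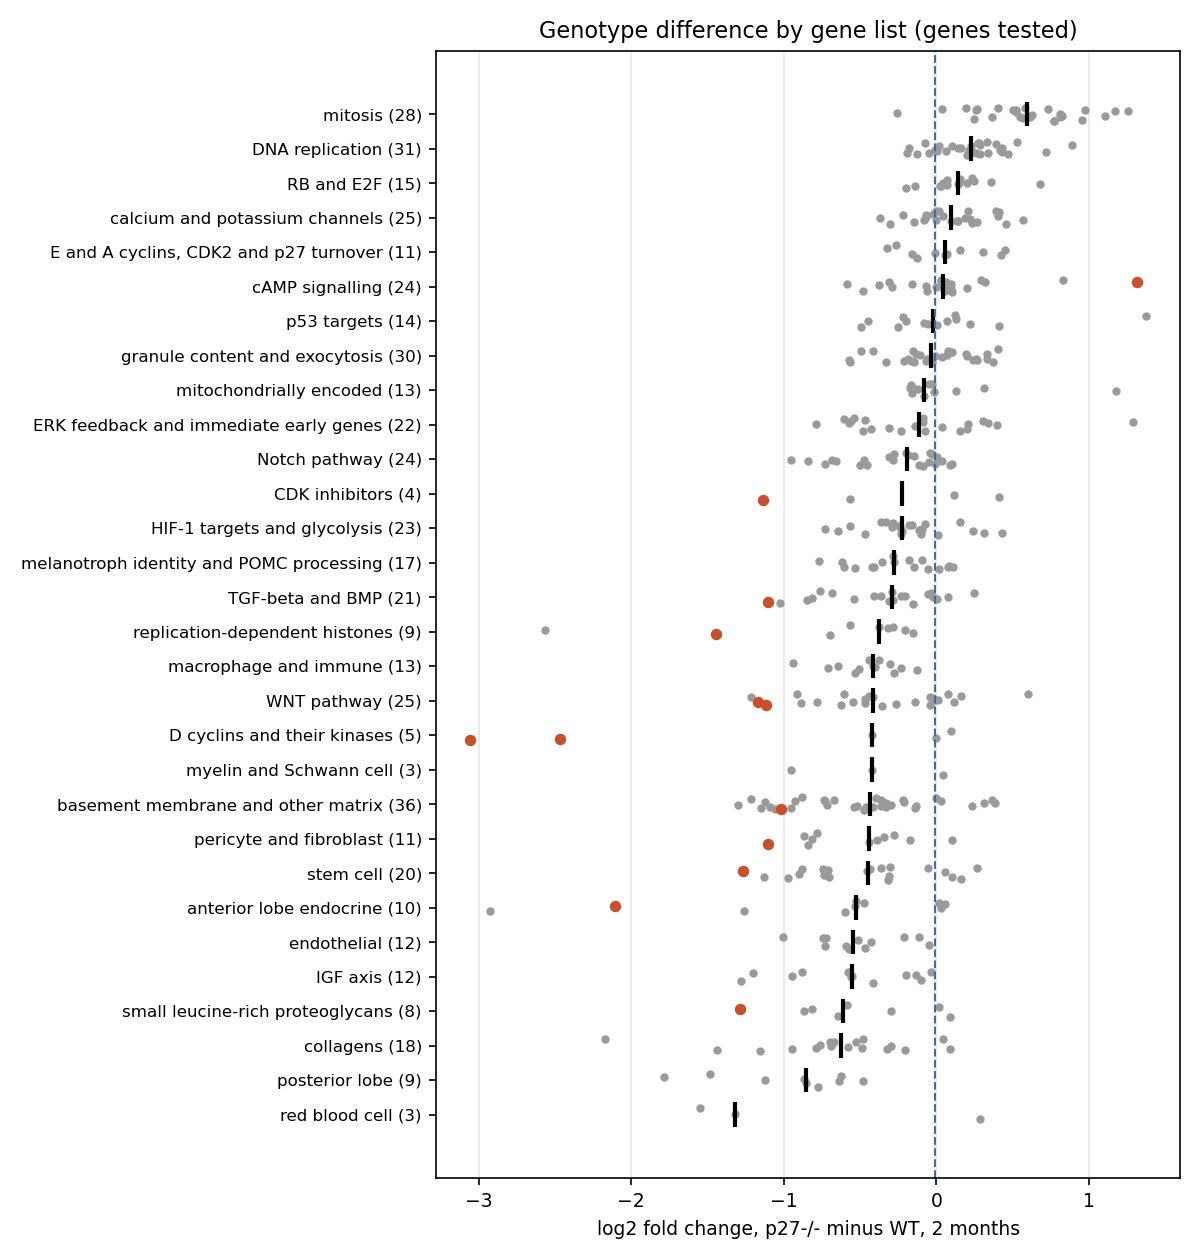
Log2 fold change at 2 mo, p27-/- minus WT, of each gene tested in the gene lists (grey points, orange where called), with list medians as black bars and the median of all genes tested, -0.01, as a dashed line. Numbers in brackets are genes tested. Mitosis at 0.60 has the highest median, and the red blood cell, posterior lobe and collagen lists lie at the low end.

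Markers of other cells in the dissected tissue were lower in the same libraries as the matrix genes, and their part in those results was not tested. All 9 posterior lobe genes tested lay wholly below WT, 7 at an unadjusted p under 0.05, with a median of -0.86. The summed level of the list, the log2 of the back-transformed sum, was 11.54 to 12.54 in WT and 10.86 and 11.10 in p27-/-. WT replicate 2 was the highest of the 5 libraries for it, with the pituicyte genes Nkx2-1 at 5.55 and Fgf10 at 7.90 against 3.74 and 4.02 and 5.48 and 5.63 in the other WT libraries, and the median was -0.73 without WT replicate 2. The same library stood highest for Fndc3c1, at 10.49 against 7.77 and 8.32 in WT and 5.47 and 5.40 in p27-/- (difference -3.43, SE 0.69, adjusted p = 0.0597), for Col25a1, at 9.91 against 6.28 to 7.88 elsewhere (difference -2.17, adjusted p = 0.146), and for the bicarbonate transporter gene Slc4a4, at 9.53 against 6.32 to 7.71 elsewhere (difference -1.88, adjusted p = 0.0951). The defining markers Rax and Oxt were low in all 5 libraries, at 1.14 to 1.67 and 0.54 to 1.21, and were not tested, and Avp was not analysed here.

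All 12 endothelial genes had a negative difference, 5 of them at an unadjusted p under 0.05, with a median of -0.55 and a summed level of 8.99 to 9.41 in WT and 8.48 and 8.51 in p27-/-. Flt1, a VEGF receptor gene, differed by -1.01 (adjusted p = 0.181) and Cdh5, which encodes VE-cadherin, by -0.74 (adjusted p = 0.268), while Cldn5 was near the bottom of the scale in every library, at -1.61 to -1.57. Of 11 pericyte and fibroblast genes 10 were negative with Pdgfra called, a median of -0.44 and summed levels of 10.70 to 11.18 and 10.15 and 10.17. All 13 macrophage and immune genes were negative, 2 at an unadjusted p under 0.05, with a median of -0.41 and summed levels of 10.52 to 10.70 and 9.95 and 10.40, and the median was -0.23 without p27-/- replicate 1. Csf1r, the macrophage growth factor receptor gene, differed by -0.71 (adjusted p = 0.218), and C1qa was at 0.96 to 1.35 in all 5 libraries and was not tested.

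Anterior lobe transcripts varied between single libraries. Gh was at 13.88, 12.98 and 13.56 in WT and 11.09 and 11.65 in p27-/- and fell by 2.10 (SE 0.33, adjusted p = 0.0336), a 4.30-fold decrease. Without p27-/- replicate 1 its adjusted p was 0.407, without replicate 2 it was 0.161, and without WT replicate 1 or 3 it was 0.0764 or 0.0696. Fshb, the FSH subunit gene, was at 11.32, 9.55 and 11.26 in WT and 9.39 and 6.18 in p27-/- (difference -2.93, SE 0.88, adjusted p = 0.201), and Prl, the prolactin gene, was at 11.86 to 13.57 in WT and 11.16 and 14.56 in p27-/- (difference 0.05, adjusted p = 0.994). Both extremes, the lowest Fshb and the highest Prl, belonged to p27-/- replicate 2, the library high in Xist. The 10 genes tested had a median of -0.53 (-0.29 without WT replicate 3 and -0.81 without WT replicate 2), 3 lay wholly below WT, and the summed level was 13.80 to 14.85 in WT and 12.63 and 14.82 in p27-/-.

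**Figure D5:**
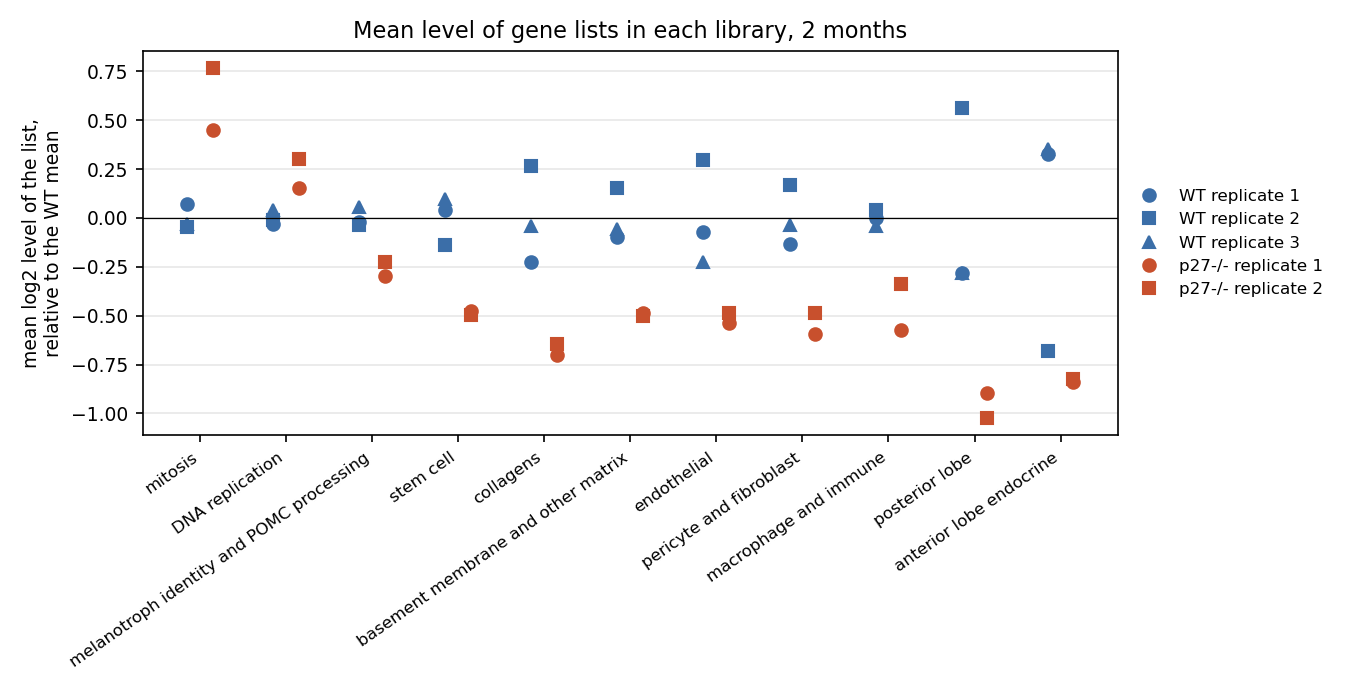
Mean log2 level of 11 gene lists in each 2-mo library relative to the mean of the 3 WT libraries, 1 point per library. Both p27-/- libraries lie above WT for mitosis and DNA replication and below WT for the other 9 lists. WT replicate 2 is highest for the posterior lobe and lowest of WT for the anterior lobe.

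The 2-mo calls overlapped in part with those at 7 mo, where 3037 genes (18.3%) were called. Of the 28 falls 18 were also called at 7 mo, and of the 10 rises 5, each set tested in separate libraries but in the same model. That model gives a gene the same SE at both ages, so a small spread favors a call at both. The 18.3% covers both directions and all genes tested, so the overlap set beside it is no measure of replication. The Xist and mitochondrial imbalances at 7 mo were not modeled in this fit, and their part in the overlap was not tested. At 7 mo Ccnd2 differed by -2.65 (adjusted p = 1.86e-05) and Ccnd1 by -1.21 (adjusted p = 0.0105), and Timp3, Plat, Mmp15, Zfp423 and Dkk3 by -1.12, -1.25, -1.59, -1.49 and -1.06. In contrast Nes, Sod3, Clu and Mybpc1 differed by -0.25, -0.03, -0.26 and 0.11 there, none of them called. The medians of the posterior lobe, endothelial and IGF lists, negative at 2 mo, were 0.19, 0.13 and 0.08 at 7 mo, and these differences between the ages were not tested.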

How the data were processed

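RNA was extracted from dissected ILs, amplified to cDNA and sequenced. Per the methods of the study and the submitters' processing notes, the authors aligned reads with STAR (2.5.2a), estimated gene counts with RSEM (1.3.30) on the Ensembl transcriptome of GRCm38 without using strand, and normalised them with DESeq2 (1.18.1). The deposited table holds log2 normalised values for 39021 gene IDs from these authors. Its transform is not named, and low genes are pulled together, which understates their fold changes. Depth cannot be recovered. Overlapping genes on opposite strands and near-identical histone or globin copies cannot be told apart.

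Groups and replicate numbers came from the sample titles. The 16556 genes (42.4%) whose values, taken back to the linear scale, averaged 10 or more in the 10 libraries were fitted with limma (3.58.1, R 4.3.3), 1 coefficient per group, a mean-variance trend, 6 residual degrees of freedom and Benjamini-Hochberg adjustment at 0.05. The plan allowed log2(value + 1) for linear values, and since the table was on the log2 scale no pseudocount was used. P-values rest on the spread between these few animals. Scripts were tested on simulated data.

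The genes named were the called genes with a symbol (at most 2 unnamed IDs in each direction), the 10 largest differences each way among genes with a mean of at least 100, an unadjusted p under 0.01 and no overlap, up to 6 genes of lowest p per list, and the fixed markers; single genes beyond it were chosen after their values were seen. The result of 1 called gene is not reported here, and neither is that of 1 gene list. Members and lists were chosen with earlier results of these data known. Gene IDs were paired with symbols for 27874 of 39021. Coordinates and promoters are from RefSeq (GRCm38.p6). Exonic GC content was taken from the NCBIM37 annotation for 85.6% of the genes tested and corrected by loess (span 0.3). Alternatives were other filters, pseudocounts, scalings, weights, covariates, a replicate block, and leaving out each library. Of these, the replicate block with GC correction and the uncorrected fit of genes with GC content, were added after the data were seen.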

Additional observations from a re-analysis of the deposited data

How the results depend on the processing

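The number of genes called at 2 mo, 38 as reported, was 4 with no filter on low values, 11 with a pseudocount of 10, 109 with only the 5 libraries of 2 mo, 8 after quantile normalisation, 433 with library quality weights, 3 without the mean-variance trend, 6 with log2 Xist as a covariate, 13 with the GC correction and 5 with GC and Xist together, and 3 to 12 when 1 library was left out. It was 43 with a minimum mean of 50, 35 with equal totals without mitochondrial genes 38 with pseudocounts of 0.1 and 1, 40 without Xist and Y-linked genes and 39 with only the genes of known GC content. The replicate block gave 21 calls, and 18 with the GC correction, a fit added after the data were seen. The numbers were not taken to pair libraries, since the deviations of libraries with the same number correlated at 0.0578 and 0.0167. The cause of these shifts was not tested, apart from the fewer genes or libraries that some settings leave.

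The Cdkn1b difference stayed at -1.13 but was not called without a filter on low values (adjusted p = 0.0851) or without the trend (adjusted p = 0.0536), and it was -1.10 with Xist as a covariate (adjusted p = 0.103). Leaving out 1 library gave -1.21 to -1.03. Its range of adjusted p over all alternatives was 0.000763 to 0.301. The interaction count, 0 as reported, was 6 with equal totals, 39 with quality weights and 0 to 40 when 1 library was left out, highest without WT replicate 1, and it could not be fitted from the 2-mo libraries alone. Count-based tests were not run, since the values are not counts. Medians of gene lists also moved with GC and Xist corrected together, and with a minimum mean of 50 the stem cell median was -0.71 and that of pericytes and fibroblasts -0.81. For the genes named in the text, no called difference changed sign under the alternatives run.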

Other observations

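Replication-dependent histone genes, whose transcripts mostly lack poly(A) tails, had negative differences in all 9 tested. Hist1h2bc was at 7.54, 8.13 and 8.10 in WT and 6.49 and 6.47 in p27-/- and fell by 1.45 (SE 0.23, adjusted p = 0.0336). The call was kept with the GC correction (adjusted p = 0.0385) and without WT replicate 1 (adjusted p = 0.0177). It was lost after quantile normalisation (adjusted p = 0.0601) and with Xist as a covariate (adjusted p = 0.0631). Without WT replicate 2 or 3 it was lost too (adjusted p = 0.116 and 0.0696). It was also not kept when either p27-/- library was left out, which leaves a single library in that group. Hist2h3c1 was at 3.76, 6.12 and 6.63 in WT and 2.92 and 2.95 in p27-/- (difference -2.57, adjusted p = 0.0875). The list had a median of -0.37, 4 genes at an unadjusted p under 0.05 and 1 called.

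Egr1, an immediate early gene, varied widely within WT. It was at 10.29, 9.42 and 11.71 in WT and 11.62 and 11.91 in p27-/- (difference 1.29, adjusted p = 0.353), with WT replicate 3 as high as the p27-/- libraries. Of 22 genes of ERK feedback and immediate early genes 0 were called, 1 was higher and 7 lower at an unadjusted p under 0.05, and the median was -0.11. Among them Etv5 was at 7.95 to 8.16 in WT and 7.10 and 7.38 in p27-/- (difference -0.79, adjusted p = 0.0668) and Spry1 differed by -0.54 (adjusted p = 0.268). Spp1, which encodes osteopontin, was at 7.12 to 7.51 in WT and 6.03 and 5.27 in p27-/- at 2 mo (difference -1.71, adjusted p = 0.0668) and differed by 0.73 at 7 mo (adjusted p = 0.163), with an adjusted p of 0.0952 for the interaction. Lcn2, which encodes lipocalin 2, differed by -1.51 (adjusted p = 0.130). The alpha-globin genes Hba-a1 and Hba-a2 were highest in WT replicate 3, at 9.36 and 9.99, against 6.11 to 6.93 and 6.52 to 7.94 in the other libraries. Of 23 genes of HIF-1 targets and glycolysis 4 had an unadjusted p under 0.05, all lower, with a median of -0.23 and 0 called, and that median was -0.11 with the GC correction.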
